A study of Mus musculus with 4 samples.

Results

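The NRF2 antioxidant genes are a set of 10 mouse genes, *Nfe2l2*, *Nqo1*, *Gclm*, *Gclc*, *Srxn1*, *Txnrd1*, *Slc7a11*, *Prdx1*, *Gsr* and *Txn1*, described here in macrophages sorted from tumors of propranolol treated and control mice. They were taken from the raw count table by matching each Ensembl identifier, without its version, to these symbols in GENCODE M21. All 10 were found among the 54146 genes listed, and all 10 passed the filter on low counts that left 14688 genes tested. The rule names them by symbol and uses no measured value, but the set was chosen with earlier results of these data known. No test of the set as a whole was therefore run.

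The macrophages came from MCA205 tumors, a fibrosarcoma model, grown under the skin of female mice of 8 to 16 weeks after MCA205 cells were injected into the flank. The study grew this tumor in immune competent mice and, in other experiments, in T cell deficient nude mice. Its methods for cell sorting do not name the strain. The propranolol group received the drug, which blocks beta-adrenergic receptors and is not selective between them, at 0.5 g/L in the drinking water from the day the cancer cells were injected, and the control group is labelled vehicle. Tumor associated macrophages (TAMs) were enriched with CD45 beads and sorted as live CD11b+F4/80+ cells, and their poly-adenylated RNA was sequenced. There were 2 libraries in each group, and the number of mice behind each is not given in the sources used here, so p-values measure the spread between these libraries. Total counts were 13798249 and 23018142 in control replicates 1 and 2, and 39818103 and 16424081 in propranolol replicates 1 and 2.

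Transcripts of marker genes of other cell types were counted in all 4 libraries, although the cells had been sorted and the study's methods state that sort purity was high, and control replicate 1 stood apart. The 12 macrophage markers examined were detected in every library, and together they took 32718 and 31084 CPM (counts scaled to a common library size) in the control libraries, against 41546 and 40391 CPM after propranolol, with *Apoe* the most abundant. The 12 fibroblast and sarcoma cell markers took 3391 CPM in control replicate 1, 1296 CPM in control replicate 2, and 746 and 775 CPM in the propranolol libraries. Their most abundant gene was *Col3a1*, at 1294, 423, 212 and 225 CPM in the same order. The 12 T and NK cell markers took 301 and 350 CPM in the control libraries, against 145 and 77.7 CPM after propranolol, led by *Cd8a* at 71.0, 86.8, 29.4 and 13.4 CPM. The summed markers of both groups were thus lower in both propranolol libraries, and the mesenchymal ones were highest in control replicate 1. The neutrophil markers moved the other way, from 151 and 183 CPM to 311 and 327 CPM. Their most abundant gene, *Csf3r*, had 97.0 and 130 CPM in control and 154 and 180 CPM in propranolol libraries. None of the markers of the lists used, which also covered B cells, dendritic cells and endothelial cells, was at 0 over all 4 libraries. The B cell markers were at 161 and 187 CPM in control and 188 and 218 CPM in propranolol libraries, led by *Ighm*. The dendritic cell markers were at 50.2 and 55.8 against 44.5 and 36.6 CPM, also lower in both propranolol libraries. Their most abundant gene, *Batf3*, overlapped between the groups, at 17.1 and 23.2 CPM in control and 24.1 and 18.1 CPM in propranolol libraries, so the lower sum came from other genes of the list. The endothelial markers were at 53.1 and 49.1 against 64.4 and 62.9 CPM, led by *Pecam1*. In bulk RNA, fewer cells of a type and less RNA per cell cannot be told apart, and the part of other cells in the values below was not tested.

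NRF2, the product of *Nfe2l2*, is a transcription factor that is held in the cytoplasm and handed to the proteasome by KEAP1, a sensor whose cysteines react with oxidants and electrophiles. When KEAP1 is modified, NRF2 escapes degradation, enters the nucleus and, with a small MAF protein, binds antioxidant response elements in front of genes that make and recycle glutathione and thioredoxin and that detoxify quinones and heme. Since this control acts on the protein, the mRNA of *Nfe2l2* need not follow NRF2 activity. In macrophages, which produce superoxide and hydrogen peroxide, this program limits oxidant damage and restrains inflammatory gene expression.

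The antioxidant response element (ARE) is the sequence through which NRF2 acts on these genes, so the promoters of the members were searched for its core, TGACNNNGC, on both strands. Promoters were RefSeq windows on GRCm38.p6, from 250 bases before to 50 bases after each annotated start, and gene coordinates are those of GENCODE M21 on the same assembly. Of the 10 members, 8 had an entry, and 5 of these, *Nfe2l2*, *Gclm*, *Srxn1*, *Txnrd1* and *Prdx1*, held a match, against 12.4% of all 32841 promoters and 14% of all 27018 genes in the table. *Txnrd1* has 3 annotated promoters, of which 1 held the match. The match of *Srxn1* begins at position 28 after the start and is not printed. The related AP-1 motif, TGANTCA, which shares the letters TGA with the ARE core and can overlap it, was found in *Srxn1* and *Prdx1* and in 7.81% of all promoters. The windows below run 5′ to 3′ on the strand of the gene, with the match in capitals. They are shown because these genes did not move alike, as described further on.

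Nfe2l2, ARE, chr2:75704884-75704913, minus strand: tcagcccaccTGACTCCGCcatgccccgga
Gclm, ARE on the opposite strand, chr3:122245412-122245442, plus strand: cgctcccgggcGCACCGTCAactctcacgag
Txnrd1, ARE on the opposite strand, chr10:82859103-82859133, plus strand: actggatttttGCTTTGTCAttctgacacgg
Prdx1, ARE on the opposite strand, overlapping an AP-1 motif, chr4:116685455-116685485, plus strand: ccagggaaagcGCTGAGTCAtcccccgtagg
Srxn1, AP-1, chr2:152105411-152105439, plus strand: ctcggagggccTGAGTCAccacgctgtgc
Srxn1, AP-1, chr2:152105468-152105496, plus strand: caaattcacccTGAGTCAgcggccgggcg

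The *Prdx1* window holds both motifs at the same bases. *Srxn1* and *Prdx1* carry 2 AP-1 motifs each. Those of *Srxn1* have identical letters, and the other one of *Prdx1*, at position -237 from the start, is not printed. A match describes the letters of the window and does not show binding.

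As counted, propranolol was not accompanied by a shift of the 10 genes in a common direction. In the edgeR quasi-likelihood test, fitted across all 14688 tested genes, *Srxn1*, *Slc7a11* and *Gsr* rose and *Nfe2l2*, *Gclm* and *Prdx1* fell at an adjusted p under 0.05, and *Txnrd1*, *Txn1*, *Gclc* and *Nqo1* did not pass. Across all tested genes, 21.8% rose and 20.4% fell by the same criterion. With a change of more than 1.5-fold required as well, which is what "changed" means from here on, 2 members changed, *Gclm* and *Prdx1*, both lower, and 0 changed upward. That is 20% of the members, against a background of 27.8% of tested genes (12.2% higher and 15.6% lower). The DESeq2 Wald test called *Gclm* and *Srxn1* instead, and *Srxn1* and *Prdx1* lay at the 1.5-fold threshold, as given below. At an unadjusted p under 0.05 in the edgeR test 4 members were higher, but the share of all tested genes at that criterion is not given here. Once the trend of fold change with GC content described below was removed, *Slc7a11*, *Gsr* and *Txn1* were higher at an adjusted p under 0.05 in the edgeR test and 0 members were lower, also at an unadjusted p under 0.05. Of all 14681 genes with a GC content, 17.5% were then higher and 6.53% lower by that criterion. As counted, the median log2 fold change of the members was 0.11, beside -0.02 for all tested genes. With the GC trend removed it was 0.22, beside 0.09. *Nfe2l2* (-0.16) and *Gclm* (-0.08) were then below 0 and all other members above it, with *Prdx1* at 0.02. The 2 control and 2 propranolol values did not overlap for 8 of the 10 members, 5 of them higher with propranolol, against 72.6% of tested genes without overlap. The share of members past the adjusted threshold lay above that of all tested genes and the share changed lay below it, and neither difference was tested.

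**Figure D1:**
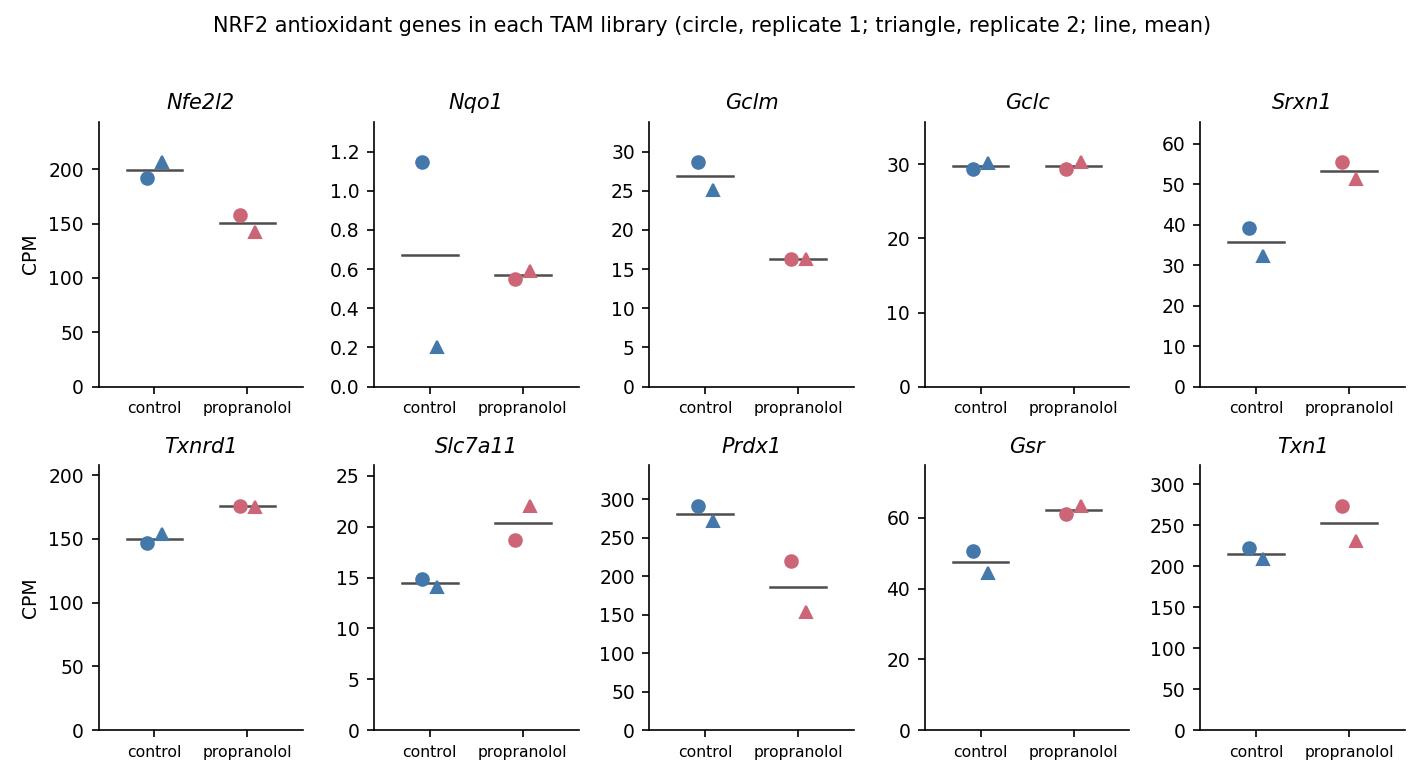
CPM of each NRF2 antioxidant gene (vertical axes, each from 0) in the control and propranolol libraries, with circles for replicate 1, triangles for replicate 2 and lines for the mean of 2 libraries. Gclm, Prdx1 and Nfe2l2 lie lower and Srxn1, Slc7a11 and Gsr higher in both propranolol libraries, Gclc is level, and the 2 control values of Nqo1 lie far apart.

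The GC content of a transcript went along with its fold change in these libraries, and this bears on every member. Across 14681 tested genes, the Spearman correlation of the log2 fold change with the GC content of the longest transcript was 0.58, a description across genes that share 4 libraries. When the genes were divided by GC content into 20 groups of like size, the median log2 fold change was -0.37 in the group around 44.3% GC and 0.35 in the group around 53.9% GC. The members had a median GC content of 47.0% against 49.6% for all tested genes. For each member the values below therefore include the median of the genes within 1 percentage point of its GC content and the log2 fold change after a GC trend was removed from each library. Whether the GC trend comes from the libraries or from the cells was not tested. Removing it shifted the median log2 fold change of all tested genes from -0.02 to 0.09.

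*Nfe2l2* (ENSMUSG00000015839.6, chr2:75675513-75704641), the gene for NRF2 itself, had 192 and 207 CPM in the control libraries, against 158 and 143 CPM after propranolol. Both propranolol values lay below both control values. The log2 fold change was -0.41 (SE 0.10), with an adjusted p of 0.00990 in the edgeR test, which makes the mRNA 1.32-fold lower with propranolol. Genes of like GC content had a median of -0.17, and with the GC trend removed the log2 fold change was -0.16 and no longer passed (adjusted p = 0.268 in the edgeR test). The call also ended without control replicate 2 (-0.33, adjusted p = 0.0828) or without propranolol replicate 2 (-0.30, adjusted p = 0.0536), and over 14 alternatives the adjusted p ran from 0.00268 to 1, the highest being for the edgeR test against a 1.5-fold change.

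*Gclc* and *Gclm* encode the catalytic and the modifier subunit of glutamate-cysteine ligase, the enzyme of the rate-limiting step of glutathione synthesis. *Gclc* (ENSMUSG00000032350.9, chr9:77754535-77794485) had 29.3 and 30.2 CPM in the control libraries, against 29.4 and 30.3 CPM after propranolol. The 4 values interleaved, and the log2 fold change was 0.00 (SE 0.12, 95% interval -0.27 to 0.28, adjusted p = 0.988 in the edgeR test). *Gclm* (ENSMUSG00000028124.15, chr3:122245557-122270732) had 28.7 and 25.1 CPM in the control libraries, against 16.3 and 16.2 CPM after propranolol. Its groups lay far apart, and it was the lowest of the members by fold change, at -0.72 on the log2 scale (SE 0.14), or 1.65-fold lower, with an adjusted p of 0.00311 in the edgeR test. The count of *Gclm* per count of *Gclc*, a ratio inside each library that needs no scaling, was 0.977 and 0.831 in the control libraries, against 0.555 and 0.536 after propranolol. The mRNA of the modifier subunit was thus lower in relation to that of the catalytic one in both propranolol libraries as counted, and the difference of the 2 log2 fold changes, -0.72, was -0.26 with the GC trend removed. *Gclm* transcripts are low in GC (42.1%), genes of like GC content were at -0.62 in the median, and with the GC trend removed *Gclm* was at -0.08 (adjusted p = 0.728 in the edgeR test, 8.35e-04 to 0.728 over 14 alternatives). Without control replicate 1, *Gclm* fell by less than 1.5-fold, with a log2 fold change of -0.57. Exons of *Gclm* overlap 296 bases of the antisense gene *Gm17494*, which had between 4 and 11 counts in a library, and 244 bases of the pseudogene *Gm6061* with 0 counts, and no strand option is stated for the counting.

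*Slc7a11* (ENSMUSG00000027737.10, chr3:49892526-50443614) encodes xCT, the light chain of the antiporter that brings cystine, the source of cysteine for glutathione, into the cell in exchange for glutamate. It had 14.9 and 14.0 CPM in the control libraries, against 18.7 and 22.1 CPM after propranolol. Both propranolol values were higher, with a log2 fold change of 0.49 (SE 0.16, adjusted p = 0.0316 in the edgeR test), or 1.41-fold. With a GC content of 40.7%, *Slc7a11* had the lowest GC of the members, and genes of like GC content had a median of -0.75. It stood at the 97.9th percentile of those 896 genes, and with the GC trend removed its log2 fold change was 1.28 (adjusted p = 0.00109 in the edgeR test, 1.89e-04 to 0.93 over 14 alternatives), the only member then changed. Without control replicate 2 the log2 fold change was 0.46 and without propranolol replicate 2 it was 0.40, and neither passed (adjusted p = 0.0990 and 0.127), nor did it pass with upper-quartile factors, whereas it exceeded 1.5-fold without control replicate 1 (0.59) or propranolol replicate 1 (0.61). *Slc3a2*, the heavy chain that pairs with xCT and with other amino acid transporters, had 303 and 309 CPM in the control libraries, against 451 and 442 CPM after propranolol, and passed the edgeR test at 0.55 on the log2 scale (adjusted p = 0.00115). Counts of *Slc7a11* per count of *Slc3a2* were 0.0493 and 0.0454 in the control libraries, against 0.0415 and 0.0499 after propranolol, so the ratio of the counts overlapped between the groups. With the GC trend removed, *Slc3a2* was at 0.32, and the difference of the 2 log2 fold changes went from -0.05 to 0.96. *Slc7a11* shares 1.47% of its 50-base stretches with transcripts of other genes.

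*Gsr* (ENSMUSG00000031584.16, chr8:33652523-33698163) encodes glutathione reductase, which returns oxidized glutathione to its reduced form with NADPH. It had 50.7 and 44.5 CPM in the control libraries, against 61.0 and 63.5 CPM after propranolol, without overlap. The log2 fold change was 0.39 (SE 0.12, adjusted p = 0.0218 in the edgeR test), or 1.31-fold higher. The GC content of *Gsr* is 50.1%, the median of like genes was 0.09, and the value with the GC trend removed was 0.38. *Gsr* was the member whose fold change moved least with that correction. Without control replicate 2 the log2 fold change was 0.31 and did not pass (adjusted p = 0.164 in the edgeR test, 0.00280 to 1 over 14 alternatives).

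*Txn1* and *Txnrd1* encode cytosolic thioredoxin, which reduces disulfides in proteins, and the thioredoxin reductase that recharges it with NADPH. *Txn1* (ENSMUSG00000028367.5, chr4:57943373-57956411) had 222 and 208 CPM in the control libraries, against 274 and 231 CPM after propranolol. *Txnrd1* (ENSMUSG00000020250.10, chr10:82833951-82897712) had 147 and 153 CPM in the control libraries, against 176 and 175 CPM after propranolol. The groups did not overlap for either gene, but neither passed the edgeR test. The log2 fold change of *Txn1* was 0.23 (SE 0.11, adjusted p = 0.117) and that of *Txnrd1* was 0.22 (SE 0.09, adjusted p = 0.0813). With the GC trend removed, *Txn1* passed at 0.45 (adjusted p = 0.0138, with 0.00143 to 1 over 14 alternatives) and *Txnrd1* did not at 0.25 (adjusted p = 0.0732, with 0.0291 to 1). *Txn1* also passed without propranolol replicate 2, at 0.38, whereas without propranolol replicate 1 it was at 0.10 and did not. Counts of *Txnrd1* per count of *Txn1* were 0.661 and 0.738 in the control libraries, against 0.643 and 0.759 after propranolol, and the ratio of reductase to thioredoxin mRNA overlapped between the groups.

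*Prdx1* and *Srxn1* act on the same chemistry. Peroxiredoxin 1 reduces hydrogen peroxide and is recharged by thioredoxin, and sulfiredoxin, the product of *Srxn1*, restores peroxiredoxins whose cysteine has been overoxidized. *Prdx1* (ENSMUSG00000028691.12, chr4:116685544-116700822) had 292 and 271 CPM in the control libraries, against 220 and 153 CPM after propranolol. Both propranolol values lay below control, with a wide gap between them. Its log2 fold change was -0.59 (SE 0.15, adjusted p = 0.0102 in the edgeR test), and its 1.51-fold decrease was just past the 1.5-fold threshold. *Srxn1* (ENSMUSG00000032802.8, chr2:152105516-152111376) had 39.2 and 32.3 CPM in the control libraries, against 55.4 and 51.1 CPM after propranolol, without overlap. It rose by 0.58 on the log2 scale (SE 0.13, adjusted p = 0.00555), and its 1.4977-fold increase was just short of the threshold. Counts of *Srxn1* per count of *Prdx1* were 0.134 and 0.119 in the control libraries, against 0.253 and 0.334 after propranolol, so that the mRNA of the repair enzyme was higher in relation to that of its substrate with propranolol. The difference of the 2 log2 fold changes was 1.17 and dropped to 0.34 with the GC trend removed. *Prdx1* has 42.3% GC, like genes had a median of -0.60, and its corrected log2 fold change was 0.02 (adjusted p = 0.933, with 9.71e-06 to 0.976 over 14 alternatives). *Srxn1* has 53.3% GC, like genes had a median of 0.32, and its corrected value was 0.36 (adjusted p = 0.0745, with 2.04e-05 to 0.69). *Prdx1* also shares 8.81% of its 50-base stretches with transcripts of 75 other genes. For *Gclm* the share was 4.58%, with 146 other genes, and for *Txn1* it was 2.5%, with 1 other gene.

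Which of these genes lay past 1.5-fold rested on the libraries included. Without control replicate 1, the library with the most mesenchymal RNA, *Srxn1* (log2 fold change 0.78) and *Slc7a11* (0.59) were past 1.5-fold. *Gclm* (-0.57) and *Prdx1* (-0.48) were then short of it. The median of the members was 0.29 in that fit, beside 0.01 for all tested genes. Without propranolol replicate 2, *Gclm* (-0.69) and *Srxn1* (0.67) were past 1.5-fold and *Prdx1* was at -0.33. Without propranolol replicate 1, *Gclm* (-0.72), *Slc7a11* (0.61) and *Prdx1* (-0.87) were past 1.5-fold and *Srxn1* was at 0.52. Without control replicate 2, 3 members passed at an adjusted p under 0.05 in place of 6. In each of the 4 subsets of 3 libraries, *Gclm*, *Prdx1* and *Nfe2l2* were lower and *Srxn1*, *Slc7a11*, *Gsr*, *Txn1* and *Txnrd1* higher with propranolol. The groups of each of these genes did not overlap, so leaving out a library could hardly turn a sign and the subsets add little to that.

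*Nqo1* (ENSMUSG00000003849.8, chr8:107388225-107403206) encodes a quinone reductase and is among the most widely used readouts of NRF2 activity. It was hardly detected in these TAMs, with 17 and 5 counts in the control libraries, against 20 and 9 counts after propranolol, or 1.15, 0.199, 0.550 and 0.589 CPM. Control replicate 1 was the highest and control replicate 2 the lowest of the 4. The log2 fold change was -0.14 with a 95% interval from -1.97 to 1.68 (adjusted p = 0.908 in the edgeR test), and it turned to 1.54 without control replicate 1. No difference in *Nqo1* could be detected with counts this low and control values this far apart.

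**Figure D2:**
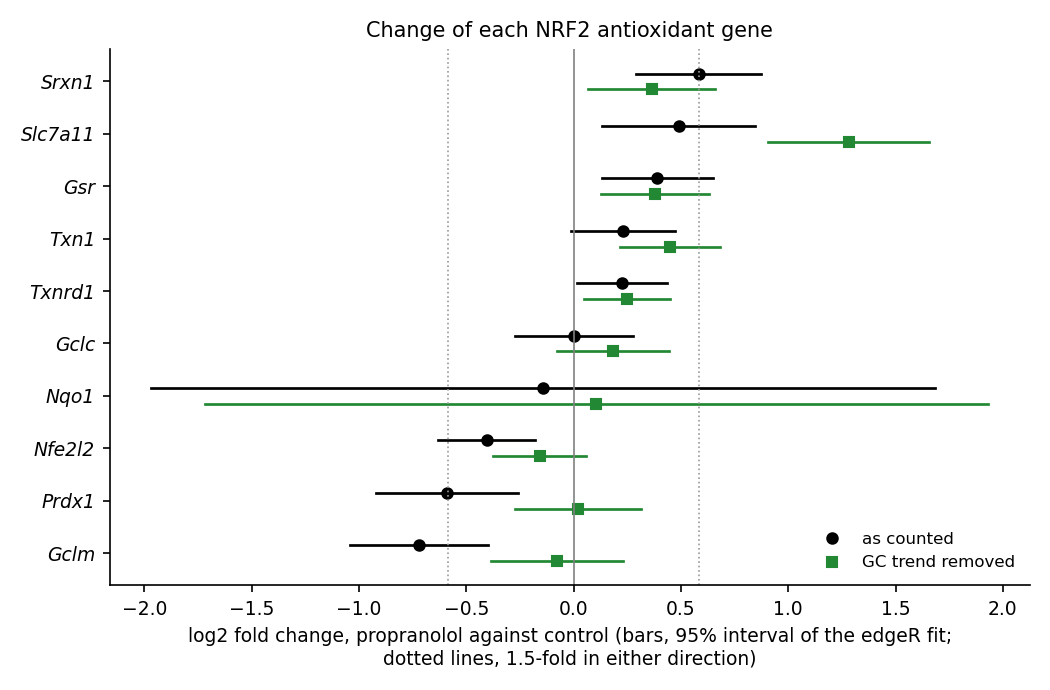
Log2 fold change of each NRF2 antioxidant gene with propranolol against control (horizontal axis), as counted (black circles) and with the GC trend of each library removed (green squares), with bars for the 95% interval of the edgeR fit. Gclm, Prdx1 and Nfe2l2 sit below 0 as counted and move to between -0.16 and 0.02 when corrected, Slc7a11 moves from 0.49 to 1.28, and Nqo1 has by far the widest interval.

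**Figure D3:**
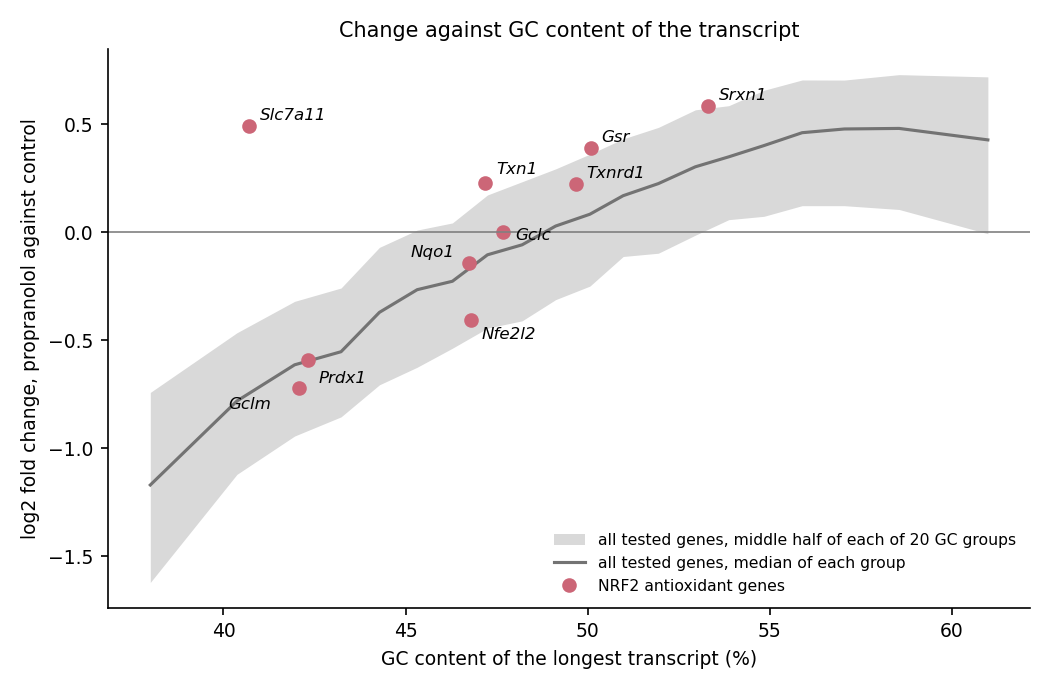
Log2 fold change with propranolol against control (vertical axis) by the GC content of the longest transcript in percent (horizontal axis), with the line and the shaded band giving the median and quartiles of all tested genes in 20 GC groups and the points the NRF2 antioxidant genes. Gclm and Prdx1 lie close to the median line, Nfe2l2 lies lower within the band, and Slc7a11 lies far higher than genes of like GC content.

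The abundance of the members spanned a wide range, and their order was the same in all 4 libraries. Levels of different genes were compared in TPM, which divides the counts by exon length before scaling. In the control libraries *Txn1* was the most abundant at 680 ± 18.4 TPM (SD, n = 2), followed by *Prdx1* at 307 ± 9.48, *Nfe2l2* at 174 ± 12.7, *Txnrd1* at 70.4 ± 3.54 and *Gsr* at 57.3 ± 4.14 TPM. *Srxn1* had 42.0 ± 4.85, *Gclc* 26.2 ± 1.06, *Gclm* 14.2 ± 1.05, *Slc7a11* 3.45 ± 0.0766 and *Nqo1* 1.42 ± 1.40 TPM. In the propranolol libraries *Txn1* was at 674 ± 62.1 TPM, *Prdx1* at 172 ± 38.5 TPM, *Nfe2l2* at 111 ± 4.90 TPM and *Nqo1* at 1.03 ± 0.0794 TPM. By ratio, the nearest neighbours in the order with propranolol were *Txnrd1* and *Gsr*, at 69.7 ± 1.74 and 63.7 ± 3.54 TPM, and no neighbouring genes overlapped within a group. Thioredoxin, at percentile 99.0 of tested genes by mean control TPM, and peroxiredoxin 1, at percentile 97.1, were thus among the most abundant mRNAs, whereas xCT was at percentile 24.3 and *Nqo1* at percentile 12.5.

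The 100 other genes around NRF2 were grouped into 6 lists, of which 96 genes were tested. Together 30 of them were higher and 6 lower by the criterion for changed genes, or 37.5% against the 27.8% of all tested genes, and their median log2 fold change was 0.31 beside -0.02. With the GC trend removed, 19 were higher and 3 lower, while the shares of all genes dropped to 7.64% higher and 4.97% lower. Without control replicate 1 the median log2 fold change of these genes was 0.39, beside 0.01 for all tested genes, and without control replicate 2 it was 0.31, beside 0.02. When a propranolol library was dropped, it was 0.25 without replicate 1, beside -0.05 for all tested genes, and 0.42 without replicate 2, beside -0.04. Their transcripts had a median GC content of 51.3%, above that of the members. The lists, like the members, were chosen with earlier results of these data known, so the comparisons with all tested genes are descriptions.

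The 11 regulators and partners of NRF2 held 2 genes that rose and 1 that fell by this criterion, against 12.2% and 15.6% of all tested genes, and their median was 0.20 on the log2 scale. *Keap1*, which holds NRF2 back, had 80.0 and 83.3 CPM in the control libraries, against 128 and 126 CPM after propranolol, and rose by 0.64 on the log2 scale (SE 0.10, adjusted p = 7.98e-04 in the edgeR test). *Keap1* counts per *Nfe2l2* count were 0.417 and 0.403 in the control libraries, against 0.810 and 0.885 after propranolol. The groups did not overlap in this ratio. With the GC trend removed, *Keap1* was at 0.30, short of 1.5-fold, and the difference of its log2 fold change from that of *Nfe2l2* dropped from 1.04 to 0.46. *Cul3*, the scaffold of the ubiquitin ligase that KEAP1 recruits, was lower, with a log2 fold change of -0.75, but its corrected value was 0.29 at a GC content of 38.5%. *Mafk*, a small MAF partner, was higher by 0.74 and *Mafg* passed the test at 0.46, but with the GC trend removed *Mafk* was at 0.42, short of 1.5-fold, and *Mafg* at 0.17 did not pass. With that correction 2 genes of the list rose and 0 fell (0 also at an unadjusted p under 0.05 in edgeR), beside 7.64% and 4.97% of all genes. The 2 were *Rbx1* (0.64) and *Btrc* (1.01), named after their values were seen. *Bach1*, a repressor that competes with NRF2 for the same sites, had 177 and 164 CPM in the control libraries, against 156 and 178 CPM after propranolol, which overlapped (log2 fold change -0.03, adjusted p = 0.842).

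Among 28 genes of glutathione synthesis, use and conjugation, 26 were tested. The criterion was met by 8 genes that rose and 2 that fell (over all tested genes, 12.2% and 15.6%), and the median was 0.24. GC correction left 4 that rose and 1 that fell, beside 7.64% and 4.97% of all genes. *Gpx1*, the main cytosolic glutathione peroxidase, had 441 and 425 CPM in the control libraries, against 859 and 740 CPM after propranolol, 1.85-fold higher (adjusted p = 2.07e-04 in the edgeR test). Its corrected log2 fold change of 0.55 was short of 1.5-fold. *Oplah*, which recovers glutamate from oxoproline, rose by 1.08 on the log2 scale and *Ggt5*, a gamma-glutamyl transferase, by 0.96. *Mgst2*, a microsomal glutathione transferase, fell by 1.67 on the log2 scale, with 3.03 and 3.91 CPM in control and 1.13 and 1.05 CPM in propranolol libraries. *Gpx8*, a peroxidase of the endoplasmic reticulum, had 5.53 and 1.87 CPM in the control libraries, against 0.825 and 1.05 CPM after propranolol, with the highest value in control replicate 1. Its log2 fold change of -1.98 (adjusted p = 0.0174) became -0.96 without that library and did not pass (adjusted p = 0.303), and at -1.54 it did not pass with the GC trend removed either.

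Among 16 other thioredoxins, peroxiredoxins and their companions, 5 rose and 2 fell, against 12.2% and 15.6% of all tested genes, and the median was 0.31. The GC correction left 2 that rose and 1 that fell (7.64% and 4.97% of all genes), and with upper-quartile factors 3 rose and 2 fell. Of the mitochondrial counterparts of the members, *Txnrd2* and *Txn2* rose by 0.92 and 0.69 on the log2 scale, with adjusted p of 0.00108 and 5.52e-04 in the edgeR test (0.63 and 0.46 when corrected for GC content, the latter short of 1.5-fold), while *Prdx3*, named after its value was seen, was at 0.02 (adjusted p = 0.929). *Txn2* had 88.1 and 88.8 CPM in the control libraries, against 147 and 138 CPM after propranolol, so its groups lay farther apart than those of *Txn1*, although that difference was not tested. *Sesn2*, a stress-induced sestrin, rose by 0.68, while *Sesn3* fell by 1.09 on the log2 scale. Corrected for GC content, *Sesn2* was at 0.34 and did not pass, and *Sesn3* was at -0.71 and did. *Txnl1*, a thioredoxin-like protein of the proteasome, had a log2 fold change of -1.09 as well, which was -0.14 with the GC trend removed. *Txnip*, which binds and inhibits thioredoxin, had 422 and 405 CPM in the control libraries, against 442 and 430 CPM after propranolol (log2 fold change 0.08, adjusted p = 0.529).

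The next list covers the supply of NADPH, on which both *Gsr* and *Txnrd1* depend. It holds enzymes that produce NADPH and others, such as *Tkt*, *Taldo1*, *Pgls* and *Nadk*, that do not. Of its 11 genes 5 rose by the criterion and 0 fell, in the edgeR and the DESeq2 test alike. Of all tested genes 12.2% rose and 15.6% fell, and the median of the list was 0.51. After GC correction 3 rose, beside 7.64% of all genes. At an unadjusted p under 0.05, 1 gene of this list was lower, *Me1*, named after its value was seen. Without propranolol replicate 1, 3 genes of the list rose and 1 fell, and without control replicate 2 or without a filter on low counts 5 rose and 1 fell. All 3 enzymes of the oxidative pentose phosphate pathway were among the 5 that rose in the edgeR test of all libraries, with the filter and without GC correction. *G6pdx* had 123 and 121 CPM in the control libraries, against 187 and 179 CPM after propranolol, 1.5006-fold higher and thus just past the threshold (adjusted p = 0.00107 in the edgeR test). *Pgls* was at 59.7 and 62.0 against 129 and 136 CPM (adjusted p = 1.03e-04), and *Pgd* at 347 and 333 against 602 and 573 CPM (adjusted p = 2.19e-04). In each of the 3 the groups lay apart by more than the spread within them. *Idh2*, the mitochondrial NADPH-producing isocitrate dehydrogenase, rose by 0.95. With the GC trend removed, the log2 fold changes were 0.40 for *G6pdx*, short of 1.5-fold, 0.78 for *Pgls*, 0.91 for *Pgd* and 0.64 for *Idh2*.

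Of 22 other known NRF2 targets, 8 rose and 0 fell by the criterion, with edgeR and with DESeq2, against 12.2% and 15.6% of all tested genes, and the median was 0.53. After GC correction 5 rose (7.64% of all genes), with upper-quartile factors 5 rose and 1 fell, and 1 gene also fell with a CPM of at least 1 required, without control replicate 2 and without propranolol replicate 1. At an adjusted p under 0.05 alone 1 gene fell, *Ugdh*, by 0.58 on the log2 scale and just short of 1.5-fold (adjusted p = 0.00538), and it too was picked out after its value was seen. *Hmox1*, heme oxygenase 1, had 320 and 355 CPM in the control libraries, against 545 and 545 CPM after propranolol, 1.62-fold higher (log2 fold change 0.69, SE 0.10, adjusted p = 4.68e-04 in the edgeR test). *Blvrb*, a biliverdin reductase, had 99.7 and 105 CPM in control and 229 and 251 CPM in propranolol libraries, 2.34-fold higher. *Fth1*, the ferritin heavy chain that stores iron, had 3863 and 3972 CPM in control and 6783 and 6604 CPM in propranolol libraries, 1.71-fold higher. Their corrected log2 fold changes were 0.48, 0.99 and 0.77, the first of them short of 1.5-fold. The partners of these last 2, the other biliverdin reductase *Blvra* and the ferritin light chain *Ftl1*, named after their values were seen, were at -0.17 (adjusted p = 0.33) and -0.0014 (adjusted p = 0.992) and did not pass. *Abcc1*, an exporter of glutathione conjugates, rose by 0.99 on the log2 scale and by 0.90 when corrected.

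Of 12 genes that make or remove superoxide and hydrogen peroxide, 10 were tested. Here 2 rose and 1 fell, against 12.2% and 15.6% of all tested genes, and the median was 0.44. When corrected for GC content 3 rose and 1 fell (7.64% and 4.97% of all genes), and without propranolol replicate 2 the numbers were 4 and 2. *Sod1*, the cytosolic superoxide dismutase, had 96.3 and 97.3 CPM in the control libraries, against 173 and 161 CPM after propranolol (log2 fold change 0.79, adjusted p = 2.92e-04 in the edgeR test). *Rac2*, a GTPase of the phagocyte oxidase, rose by 0.64, and by 0.45 when corrected, then short of 1.5-fold. *Cybb*, also of that oxidase and named after its value was seen, was at -0.50 (adjusted p = 0.00269 in the edgeR test), short of 1.5-fold, and at 0.11 when corrected. At an adjusted p under 0.05 alone, 6 genes of the list were higher and 2 lower, against 21.8% and 20.4% of all tested genes. *Sod3*, the secreted superoxide dismutase, had 10.1 and 4.30 CPM in the control libraries, against 1.98 and 3.34 CPM after propranolol, again with the highest value in control replicate 1. Its log2 fold change of -1.46 (adjusted p = 0.0217) was -0.68 without that library (adjusted p = 0.220) and -1.09 without propranolol replicate 1 (adjusted p = 0.0555).

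**Figure D4:**
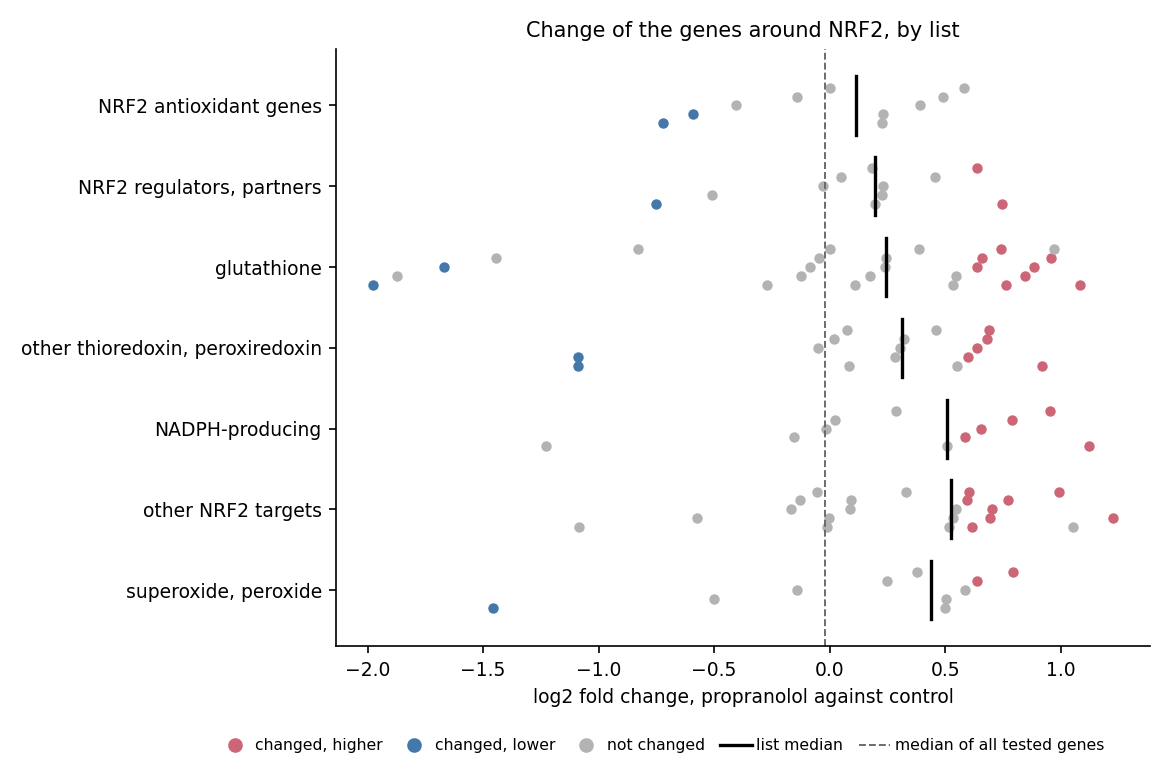
Log2 fold change with propranolol against control (horizontal axis) of every tested gene in the NRF2 antioxidant genes and the 6 lists around them, colored by whether the gene changed (adjusted p under 0.05 and over 1.5-fold), with bars for list medians and a dashed line for the median of all tested genes. The medians of the genes of NADPH supply (0.51) and other NRF2 targets (0.53) lie to the right of that of the NRF2 antioxidant genes (0.11), and neither of those 2 lists has a lower changed gene.

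The TPM values of the 10 members, which are not TMM-scaled, added up to 1392 and 1360 in the control libraries, against 1249 and 1108 after propranolol. The sums of their TMM-scaled CPM values were 1017 and 986, against 1008 and 886, and overlapped between the groups. With 2 libraries in each group, an exact permutation test of any such value cannot give a p below 0.333. The markers of other cells moved beside these genes. By the criterion for changed genes, 11 of 12 T and NK cell markers, 9 of 12 mesenchymal and 3 of 8 dendritic cell markers fell, 4 of 7 tested neutrophil markers, 2 of 12 macrophage markers and 1 of 6 tested endothelial markers rose, and of 5 tested B cell markers 2 rose and 1 fell. Of all tested genes 12.2% rose and 15.6% fell, so the macrophage and endothelial counts lay near the background by this criterion. At an adjusted p under 0.05 alone, 8 of 12 macrophage markers were higher and 0 lower, against 21.8% and 20.4% of all tested genes. When corrected for GC content, 10 T and NK cell, 7 mesenchymal and 1 dendritic cell marker fell, 5 neutrophil markers and 1 B cell marker rose, and 0 macrophage and 0 endothelial markers changed in the edgeR test, beside 7.64% of all genes that rose and 4.97% that fell. At an adjusted p under 0.05 alone, 7 of 12 macrophage markers were then higher and 1 was lower, against 17.5% and 6.53% of all genes. Of the endothelial markers, 2 were then higher only at an unadjusted p under 0.05. The part of these cells in the changes of the antioxidant genes was not tested.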

How the data were processed

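TAM RNA-seq libraries, 2 control and 2 propranolol, were compared. According to the study's methods and the processing notes, the authors aligned reads to mm10 with STAR 2.7.1a, filtered with SAMtools 1.9 at a mapping quality above 30, and counted on GENCODE exons with featureCounts 1.6.4. The deposited table holds raw counts per gene. The featureCounts options stated are -p (read pairs) and -t exon, with no strand option among them, and the annotation release is not given in the sources used here. Symbols, exon lengths and GC content came from GENCODE M21, which matched 54079 of 54146 identifiers, and promoters from RefSeq (GRCm38.p6).

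Counts were filtered (filterByExpr, minimum count 10), scaled with TMM factors of 1.08, 1.09, 0.914 and 0.931, and tested with the quasi-likelihood test of edgeR 4.0.16 (R 4.3.3), with Benjamini-Hochberg adjustment over 14688 genes. No covariate was used. CPM is per TMM-scaled library, and TPM is per exon length without TMM, so it was not compared between groups by a test. The GC correction removed a natural spline with 5 degrees of freedom from each library through offsets. Alternatives included DESeq2 1.42.0, limma-voom (limma 3.58.1), other factors and filters, each library left out, and the replicate number as a block. Where leaving out a library left its group with 1, that 1 was taken to vary as the 2 of the other group do. The fit was tested on simulated data.

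Members and lists were chosen with earlier results of these data known. Named were all members, up to 3 changed genes with the highest and 3 with the lowest fold change of each list, *Keap1*, *Bach1*, *Mafg*, *Hmox1*, *Slc3a2*, *Txnip* and *G6pdx*, and the most abundant marker of each cell type. Replicates of a group differed by more than counting error, since chi-square over its degrees of freedom was 7.56 for the control and 9.83 for the propranolol libraries.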

Additional observations from a re-analysis of the deposited data

How the results depend on the processing

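With the GC trend removed, 1 member was changed (*Slc7a11*, not changed before) and 3 members had an adjusted p under 0.05. In the 6 lists 22 genes were then changed. In all 1851 genes were changed, of which 1121 were higher, against 1798 of 4084 without the correction. Of these genes 1317 were changed in both. With the GC correction and the replicate block together the counts were 1, 5, 23 and 2120. The glmTreat test of edgeR, which sets a 1.5-fold change as its null, called 0 members, 8 list genes and 1093 genes, and a log2 fold change above 1.5 left 0, 2 and 728, fewer since both ask for larger changes. At an unadjusted p under 0.05, 7 of 10 tested members passed with edgeR and 8 of 9 with DESeq2. The share of all tested genes at that criterion is not given here, so these counts have no background beside them.

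With each library left out in turn, between 2 and 3 members changed, and between 3 (without control replicate 2) and 6 had an adjusted p under 0.05. The shares of all tested genes in these fits are not given here, so these counts have no background beside them. The same holds for the list counts given above with a library left out or with other factors or filters. The median log2 fold change of the members lay between 0.067 (without propranolol replicate 1) and 0.29 (without control replicate 1). That of *Nqo1* lay between -0.99 and 1.54, and that of *Bach1* between -0.094 and 0.086.

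Signs turned as follows. *Nqo1* was at 0.11 with the GC correction, 0.21 with the block added and 0.42 with limma-voom. *Gclc* was at -0.057 with upper-quartile factors, -0.019 with a CPM of at least 1 required and -0.0045 with limma-voom. With the GC correction, without and with the block, *Prdx1* was at 0.020 and 0.0045, *Cul3* at 0.29 and 0.28, and *Bach1* at 0.22 and 0.22. *Bach1* was at 0.042 without a filter. The causes of these turns were not tested. The DESeq2 median over all genes was -0.12, over more genes than the -0.02 of edgeR.

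Replicates share a number across groups, but nothing in the labels says that a number marks a shared mouse, batch or day, and the deviations of same-numbered libraries correlated at 0.17 over only 2 pairs. With the replicate block, 2 members changed, 8 had an adjusted p under 0.05 (*Txnrd1* and *Txn1* added), and 38 list genes and 4362 genes changed. The share of all tested genes at an adjusted p under 0.05 alone is not given for the fits with the block. Of the genes of NADPH supply 4 rose and 1 fell with the replicate block, in place of 5 and 0. *Nqo1* had between 5 and 20 counts in a library, with its control values far apart.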
